A study of Mus musculus with 2 samples.

Results

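Ccl3, Ccl4, Ccl6, Ccl9, Cxcl2 and Ccrl2 were described as myeloid chemokine genes in single cells of mouse bone marrow. The members were taken by their symbols, and all 6 named a single row among the 27998 genes of both count matrices. They were selected on measured values, since the difference between the libraries was known when the list was drawn up. All cKO against WT values of the members are therefore descriptions with no test. The cells had been sorted as LSK cells, which lack lineage markers and carry Sca-1 and c-Kit, from mice 3 months of age. This gate enriches haematopoietic stem and progenitor cells (HSPCs). There was 1 Trmt6 WT library, with the genotype Trmt6fl/fl in the labels, and 1 Trmt6 cKO library, with the genotype Trmt6fl/fl, MX1-cre. Trmt6 encodes the non-catalytic subunit of the methyltransferase that places m1A on tRNA. The Mx1 promoter that drives Cre is switched on by interferon, and so acts beyond blood cells. The study describes Mx1-Cre and polyI:C in both of its genotypes, while the labels name the Cre for the cKO library only. How many mice went into a library was not given in the sources used here. With 1 library per genotype, genotype and library cannot be told apart, and no difference has a replicate check.

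Chemokines are small secreted proteins that steer leukocytes through G protein-coupled receptors. Ccl3 and Ccl4 (MIP-1 alpha and MIP-1 beta) attract monocytes and lymphocytes, and Ccl3 is known as an inhibitor of the proliferation of primitive blood progenitors. Ccl6 and Ccl9 are rodent CC chemokines of myeloid cells that act through Ccr1. Cxcl2 is a neutrophil attractant that binds Cxcr2. Ccrl2 is an atypical receptor that holds chemerin at the cell surface and does not signal as the classical receptors do. Monocytes, granulocyte progenitors, mast cells, T cells and NK cells are all known to make Ccl3 and Ccl4.

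In the GENCODE M21 annotation of GRCm38, the 4 CC chemokine genes lie in a row on chromosome 11 within 91.8 kb. Ccl9 is at chr11:83572919-83578636, Ccl6 at chr11:83587882-83593087 and Ccl3 at chr11:83647844-83649355, all on the minus strand, and Ccl4 is at chr11:83662584-83664683 on the plus strand. Cxcl2 is at chr5:90903871-90905938 on the plus strand and Ccrl2 at chr9:111054486-111057519 on the minus strand. Only Ccl6 overlapped another annotated gene, E230016K23Rik on the opposite strand.

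Promoter sequences from RefSeq (GRCm38.p6) were found for 5 of the 6 members, all but Ccl4. The 250 bases before each start were searched on both strands for 4 motifs. They were the kappa B motif of NF-kB (GGG, any 2 bases, then TTTCC), the AP-1 motif of Fos and Jun proteins (TGANTCA), the C/EBP motif (TTGCNNAA) and the PU.1 motif (GAGGAA). The motifs shared no overlapping match in the members. The 3 promoters with a match are shown because Cxcl2, Ccl9 and Ccl3 had different orders over the lineages, given below. Each begins 150 bases before the RefSeq start and ends before both that start and the GENCODE gene, on the strand of the gene, with the matches in capitals.
Cxcl2, chr5:90903749-90903870, plus strand: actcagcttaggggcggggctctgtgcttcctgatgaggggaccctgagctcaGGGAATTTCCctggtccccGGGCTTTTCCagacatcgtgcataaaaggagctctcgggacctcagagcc
Ccl9, chr11:83578637-83578786, minus strand: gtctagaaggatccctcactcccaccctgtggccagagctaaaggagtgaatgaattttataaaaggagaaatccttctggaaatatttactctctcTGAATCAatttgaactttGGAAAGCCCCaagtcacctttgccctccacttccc
Ccl3, chr11:83649379-83649528, minus strand: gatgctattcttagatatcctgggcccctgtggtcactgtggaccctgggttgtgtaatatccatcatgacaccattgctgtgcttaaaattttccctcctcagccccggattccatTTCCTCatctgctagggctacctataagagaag

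The Cxcl2 promoter held 2 kappa B matches, GGGAATTTCC and GGGCTTTTCC. The Ccl9 promoter held a kappa B match on the other strand (GGAAAGCCCC) and an AP-1 match (TGAATCA). The Ccl3 promoter held a PU.1 match on the other strand (TTCCTC). Among the promoters of 27025 genes, a kappa B match was present in 1.65%, an AP-1 match in 7.82%, a C/EBP match in 10.8% and a PU.1 match in 25.9%. In the windows of Ccl6 and Ccrl2 none of the 4 was found, and the C/EBP letters were in none of the 5 windows.

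The WT matrix held 8869 barcodes with 47991455 UMIs and the cKO matrix 9260 barcodes with 98323201 UMIs, and 24 barcode sequences were in both. The study's limits and a doublet filter left 8145 cells of WT, with a median of 4265 UMIs, and 8475 of cKO, with a median of 10155 UMIs. The cKO library was thus deeper per cell, and shares of cells were taken after each cell was thinned to 2000 UMIs. The libraries also differed in granule genes. S100a8, a neutrophil granule gene, stood at 2639 CPM (UMIs of the gene per 1000000 UMIs of the cells) in WT and at 0.885 CPM in cKO, and Mpo, a primary granule enzyme of myeloid progenitors, at 2204 and 75.8 CPM. Without the neutrophil granule-gated cells the log2 ratio of Ccl3 was -5.77, and the members are given by gates below. Of the 8 genes checked for LSK identity, all were above 5 CPM in a library, with Kit at 62.8 and 21.3 CPM and Ly6a, which encodes Sca-1, at 33.7 and 142 CPM. The lineage genes Cd3e and Ms4a1 had no UMI in WT and were at 0.113 CPM each in cKO. Trmt6 itself stood at 64.1 CPM in WT against 50.2 CPM in cKO. These are 3′ end tags, and a tag outside the deleted part does not check the deletion. All intervals below are 95% intervals and cover counting error only.

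All 6 members were lower in the cKO library than in the WT library. For the 4 CC chemokines the difference ranged from 5.70-fold to 53.8-fold, and for Cxcl2 and Ccrl2 it was 1.91-fold and 1.92-fold. Ccl3 was at 182 CPM (178 to 186) in WT but only 3.37 CPM (3.00 to 3.78) in cKO, with a cKO over WT log2 ratio of -5.75. Ccl9 was at 164 CPM (160 to 168) in WT and 8.07 CPM (7.48 to 8.68) in cKO, with a log2 ratio of -4.34. Ccl4 was at 192 CPM (188 to 196) in WT and 11.5 CPM (10.8 to 12.2) in cKO, with a log2 ratio of -4.06. These 3 chemokines were abundant in WT and scarce in cKO, with no overlap of their counting intervals. Ccl6 was scarce in both libraries, at 3.45 CPM (2.91 to 4.05) in WT and 0.601 CPM (0.450 to 0.786) in cKO. Cxcl2 was at 12.4 CPM (11.4 to 13.5) in WT and 6.50 CPM (5.98 to 7.05) in cKO, with a log2 ratio of -0.94 (-1.11 to -0.76). Ccrl2 was at 10.2 CPM (9.29 to 11.2) in WT and 5.33 CPM (4.86 to 5.84) in cKO, with a log2 ratio of -0.94 (-1.13 to -0.75).

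Among the 9141 genes that reached 5 CPM in WT or cKO, 5.26% had a log2 ratio of -1 or lower and 2.92% of 1 or higher, and their median was -0.06. Of the 5 members at that level, 3 had a log2 ratio of -1 or lower. Nothing is read from this count, since the list was chosen with this contrast in view. Ccl3, Ccl4 and Ccl9 lay beyond the 2-fold limit. Cxcl2 and Ccrl2 lay just inside it, and Ccl6 was below 5 CPM in both libraries.

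**Figure D1:**
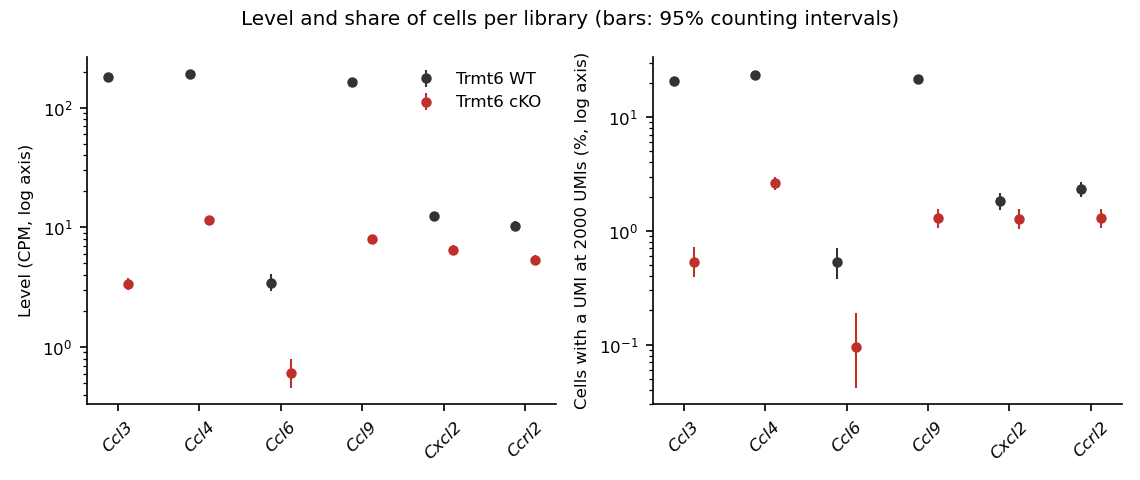
Level in CPM (left, log axis) and percent of cells with a UMI after thinning to 2000 UMIs (right, log axis) of the 6 members in the Trmt6 WT library (grey) and the Trmt6 cKO library (red), 1 library each. Points are the values and bars are 95% intervals of counting error. Ccl3, Ccl4 and Ccl9 stand between 164 and 192 CPM in WT and between 3.37 and 11.5 CPM in cKO, while the points of Cxcl2 and Ccrl2 lie close together.

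The shares of cells followed the levels. At 2000 UMIs per cell, a Ccl3 UMI was found in 20.9% of the WT library (20.04 to 21.8) and 0.537% of the cKO library (0.392 to 0.718). A Ccl4 UMI was found in 23.6% and 2.63%, a Ccl9 UMI in 21.6% and 1.30%, and a Ccl6 UMI in 0.528% and 0.0955%. Ccrl2 was found in 2.31% of the WT library (1.99 to 2.67) and 1.29% of the cKO library (1.06 to 1.55). The intervals of WT and cKO were apart for these 5 members. For Cxcl2 they touched, with 1.82% (1.54 to 2.14) in WT and 1.28% (1.05 to 1.54) in cKO. Without thinning, Cxcl2 was in 3.50% of WT and 4.58% of cKO cells and Ccrl2 in 4.87% and 5.19%, an order opposite to the level, and no order is read from these shares at unequal depth. At least 1 member was seen in 49.3% of thinned WT cells and in 6.602% of thinned cKO cells.

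Lineage was read in the 2 libraries with gates, sets of cells with UMIs of several marker genes of a lineage, none of them a chemokine. Because the gates ask for several markers in 2000 UMIs, they left 72.3% of WT and 91.9% of cKO cells ungated. Each library was also clustered on its own without chemokines and their receptors, and clusters are given by number with their leading genes.

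Ccl3 in WT was highest in early lymphoid cells, not in cells with myeloid granule genes. In the early lymphoid gate (Flt3, Dntt, Il7r, Rag1, Satb1, Notch1), which held 210 WT cells, Ccl3 was at 576 CPM (528 to 626) and 48.6% of the cells had a UMI. It was at 261 CPM in 129 monocyte or dendritic-gated cells, at 125 CPM in 216 stem-gated cells and at 98.2 CPM in 1165 azurophil-gated cells (Mpo, Elane, Prtn3, Ctsg, Ms4a3). In neutrophil granule-gated cells it was at 14.7 CPM (5.38 to 31.9), and in erythroid-gated cells at 23.7 CPM (8.72 to 51.7). The label of a myeloid chemokine thus covered only some of the cells with Ccl3, since the monocyte or dendritic and azurophil gates lay above the erythroid gate but below the early lymphoid gate. The neighbours in this order did not overlap in their intervals down to the azurophil gate, while the stem and azurophil gates touched at their edges and the neutrophil and erythroid gates overlapped.

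Ccl4 followed Ccl3. It was at 453 CPM in the early lymphoid gate and at 214 and 208 CPM in the stem and monocyte or dendritic gates, which did not differ beyond their intervals. In the azurophil gate it was at 109 CPM and in the neutrophil granule gate at 19.5 CPM. In the stem gate 1 cell held 27 of the 142 Ccl4 UMIs. Without the highest cell of each gate, Ccl4 was at 173 CPM in the stem gate and 184 CPM in the monocyte or dendritic gate. The clusters differed from the gates in part, with Ccl3 again highest in early lymphoid-like cells but lower in monocyte or dendritic-like cells (103 CPM in cluster 7) than in stem-like cells, and Ccl4 highest in cluster 10. In cluster 4, early lymphoid-like and led by Dntt and Wfdc17 (873 cells), Ccl3 stood at 721 CPM and Ccl4 at 615 CPM. In cluster 1, stem-like and led by Ltb and Hlf with the early-response gene Egr1 among its leading genes (3153 cells), they stood at 246 and 278 CPM. Clusters 4 and 1 held 32.0% and 35.5% of all WT Ccl3 UMIs. In cluster 10, led by the interferon-induced genes Ifit1 and Rsad2 (62 cells), Ccl3 was at 486 CPM and Ccl4 at 840 CPM, beside 1721 CPM of Ccl5. Cluster 6, azurophil-like and led by Elane and Ms4a3 (389 cells), held them at 34.2 and 47.4 CPM.

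Ccl9 had another pattern, in which granule-making progenitors stood highest. In WT it was at 278 CPM (268 to 288) in the azurophil gate, and these cells held 42.3% of all WT Ccl9 UMIs. It was at 125 CPM in the early lymphoid gate, at 124 CPM in the monocyte or dendritic gate and at 57.1 CPM in the stem gate. Neutrophil granule-gated cells held 3 Ccl9 UMIs in 58 cells, a level of 7.33 CPM, so that Ccl9 was low in the cells with later granule genes. Among clusters, Ccl9 was at 257 CPM in cluster 6 and 234 CPM in cluster 5, led by the replication genes Ung and E2f1, with overlapping intervals. It was at 20.5 CPM in the megakaryocyte-like cluster 3, led by Prss34 and Gp1bb (934 cells).

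The difference between the libraries was present within the stem, early lymphoid and azurophil gates for Ccl3, Ccl4 and Ccl9, and it was smallest for Ccl9 in granule-making cells. The neutrophil granule gate held no cKO cell and the monocyte or dendritic gate 8, where Ccl4 was at 138 CPM (50.6 to 300.03) from 6 UMIs in 1 cell, and neither gate was compared. In stem-gated cells (216 WT and 306 cKO), Ccl3 was at 125 CPM in WT against 4.93 CPM in cKO, Ccl4 at 214 and 26.9 CPM and Ccl9 at 57.1 and 2.69 CPM. In early lymphoid-gated cells (210 and 35), Ccl3 was at 576 CPM in WT and, from 1 UMI, at 3.17 CPM in cKO, and Ccl9 at 125 and 19.003 CPM. Of the 6 cKO Ccl9 UMIs in that gate 5 were in 1 cell, and the level was 3.23 CPM without it. In azurophil-gated cells (1165 and 78), Ccl3 was at 98.2 CPM in WT against 3.16 CPM in cKO, and Ccl9 at 278 and 106 CPM, a log2 ratio of -1.39 (-1.66 to -1.14). This ratio was -0.75 with 1 marker more in the gate and -2.19 with the gate on all UMIs. With the limits used here, the interval of Ccl3 was -6.84 to -3.60, apart from that of Ccl9. Over the 3 gates 10 of the 18 member ratios had an interval below 0, beside 11.3% of the ratios of the 9141 genes. With 1 marker more per gate there were 6 of 12 beside 5.79%, and with gates on all UMIs 16 of 18 beside 26.3%. Nothing is read from these counts, since the members were chosen on this contrast. Azurophil-gated cells made up 14.3% of WT and 0.920% of cKO cells, and early lymphoid-gated cells 2.58% and 0.413%. With the gates weighted as in WT in both libraries and the neutrophil granule gate left out, the log2 ratio of Ccl9 was -2.28 in place of -4.34. That of Ccl3 was then -5.14.

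**Figure D2:**
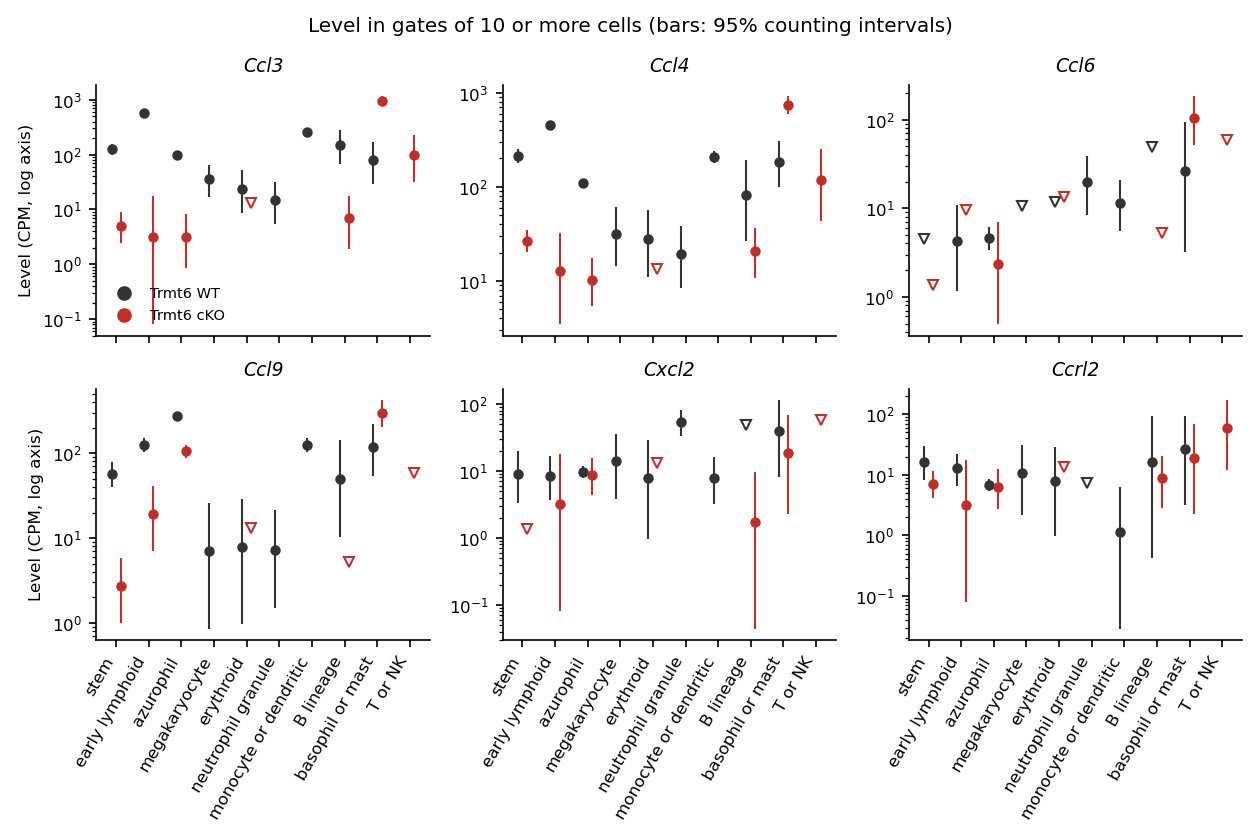
Level in CPM (log axis) of each member in the gates with at least 10 cells of a library, for Trmt6 WT (grey) and Trmt6 cKO (red), 1 library each. Points are levels with 95% Poisson intervals, and open triangles mark a gate with no UMI, drawn at the level of 3 counts. Ccl3 and Ccl4 of WT are highest in the early lymphoid gate and Ccl9 in the azurophil gate, and in cKO all 3 are highest in the basophil or mast gate.

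Ccl6 was too scarce for an order of most gates. In WT it was at 4.58 CPM (3.39 to 6.06) in the azurophil gate and at 11.4 CPM (5.47 to 21.0) in the monocyte or dendritic gate. Its 19.5 CPM in the neutrophil granule gate rested on 1 cell, which held 7 of the 8 UMIs, and was 2.47 CPM without it. In cluster 12, led by the antigen presentation genes Cd74 and H2-Aa (22 cells), 6 UMIs gave 67.5 CPM (24.8 to 147). In stem-gated cells Ccl6 had no UMI in either library, and 3 counts would be 4.51 CPM in WT. With the WT mix of gates in both libraries and no neutrophil granule gate, its log2 ratio was -0.13 in place of -2.51. That value leaned on single cKO cells. All 3 cKO Ccl6 UMIs of the monocyte or dendritic gate were in 1 cell, as were all 6 of the cells below 2000 UMIs.

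Cxcl2 and Ccrl2 were scarce in all gates, and their order differed from that of the CC chemokines. Cxcl2 in WT was between 7.98 and 9.72 CPM in the stem, early lymphoid, azurophil and monocyte or dendritic gates. It was at 53.7 CPM (33.7 to 81.3) in the neutrophil granule gate, where 3 of 58 cells held all 22 UMIs, and at 24.7 CPM without the cell that held 12 of them. The neutrophil-like cluster 9 of 78 cells held 3 Cxcl2 UMIs. The highest cluster values in WT were 45.9 CPM (22.0 to 84.4) in the interferon gene-led cluster 10 and 23.9 CPM (19.1 to 29.7) in cluster 4, beside 12.2 CPM (10.3 to 14.4) in cluster 1. In stem-gated cells Cxcl2 was at 9.02 CPM in WT from 6 UMIs and had no UMI in 306 cKO cells, where 3 counts would be 1.34 CPM. With 0.5 prior counts, the log2 ratio was -5.45 in this gate, while 3 cKO counts would give -2.75. It was -3.50 with 1 marker more, again with no cKO UMI, so that both values depend on the prior counts. By the other settings it was -2.65 with doublets kept, -1.82 by clusters, -1.21 with the gate on all UMIs and -0.68 with 1 marker fewer. In azurophil-gated cells Cxcl2 was at 9.72 CPM in WT against 8.68 CPM in cKO, with a log2 ratio of -0.11 (-1.21 to 0.74), so that a difference was not detectable at this depth. With 1 marker more in the gate the log2 ratio was 0.94.

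Ccrl2 was at 16.5 CPM (8.26 to 29.6) in stem-gated WT cells and at 6.83 CPM (5.35 to 8.58) in azurophil-gated WT cells, and its only monocyte or dendritic-gated UMI gave 1.14 CPM. The clusters showed the same order, with 14.4 CPM (12.3 to 16.8) in the stem-like cluster 1, 5.67 CPM (3.74 to 8.25) in the azurophil-like cluster 6 and 1.41 CPM (0.459 to 3.30) in the monocyte or dendritic-like cluster 7. Their intervals did not overlap, so that Ccrl2 was lowest of the 3 in cells with monocyte genes. In the stem gate it was at 7.17 CPM in cKO, and the interval of the log2 ratio, -2.40 to 0.05, held 0. In the azurophil gate it was at 6.32 CPM in cKO, with an interval of -1.38 to 0.94.

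In basophil or mast-gated cells (Cpa3, Mcpt8, Ms4a2 and other granule and receptor genes) Ccl3, Ccl4 and Ccl9 were higher in cKO than in WT. This gate held 12 WT and 20 cKO cells. The cells were not alike in other genes, with Mpo at 1883 CPM in WT against 178 CPM in cKO. None of the 12 WT clusters was called basophil or mast-like by the rule used. However, Prss34, a marker of this gate, was the first leading gene of the megakaryocyte-like WT cluster 3 (934 cells). In this gate, Ccl3 was at 78.4 CPM in WT against 967 CPM (789 to 1172) in cKO, with a log2 ratio of 3.51 (2.45 to 5.10). Ccl4 was at 183 and 741 CPM (1.98, from 1.19 to 2.95) and Ccl9 at 118 and 300.3 CPM (1.30, from 0.25 to 2.60). Ccl6 was at 26.1 CPM in WT from 2 UMIs and 103 CPM in cKO from 11 UMIs, and the interval of its log2 ratio, -0.21 to 5.20, held 0. Cxcl2 and Ccrl2 had 2 or 3 UMIs in each library there, with log2 ratios of -0.96 (-4.64 to 2.06) and -0.48 (-4.26 to 3.31). The WT values leaned on single cells. Without the WT cell with most UMIs, Ccl4 was at 68.0 CPM, Ccl9 at 58.5 CPM and Ccl3 at 44.1 CPM. In cKO, 12 of the 20 cells held Ccl3 UMIs and the level without the highest cell was 830 CPM. Ccl6 in cKO was 58.8 CPM without its highest cell. These 20 cells held 34.7% of all cKO Ccl3 UMIs, and cluster 19, basophil or mast-like and led by Prss34 and Cma1 (29 cells), held 39.1% of them. Cluster 19 was also the highest cKO cluster for Ccl4 (881 CPM), Ccl9 (402 CPM) and Ccl6 (171 CPM). Without basophil or mast-gated cells and cells below 2000 UMIs, the log2 ratio of Ccl3 over the library was -6.48.

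In single cells the members were unevenly spread. In cKO, the 85 cells with most Ccl3 UMIs (1% of cells) held 77.8% of them, against 17.0% in the matching 81 WT cells. For Ccl9 these shares were 47.1% in cKO and 10.1% in WT, and for Ccl4 29.5% and 16.5%. Without these cells the log2 ratio over the library was -7.65 for Ccl3 and -5.09 for Ccl9. Ccl3 and Ccl4 were found together more often than the product of their single shares. A UMI of both was seen in 759 thinned WT cells, where the product gives 392 cells, a ratio of 1.93. Ccl3 with Ccl9 was seen in 486 WT cells against 359 from the product (1.35), and Ccl4 with Ccl9 in 479 against 404 (1.19). In cKO, Ccl3 and Ccl4 were seen together in 15 cells, where the product gives 1.18. All WT cells of a pair share their library and the mix of lineages, and these ratios are descriptions.

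Spill-over, free RNA that gives UMIs in cells that do not make a gene, was measured with cells of other lineages. T or NK-gated cells were meant as the reference, but only 1 WT cell and 19 cKO cells met that gate at 2000 UMIs. With the gate on all UMIs, chosen after seeing the data, there were 9 WT and 57 cKO cells. T and NK cells are known to make Ccl3 and Ccl4 themselves, so Ccl9 and the granule genes are the better measures in them. In the 57 cKO cells, with a median of 1840 UMIs, Ccl3 was at 89.7 CPM and Ccl4 at 212 CPM, 27.6-fold (13.6 to 50.1) and 18.9-fold (12.3 to 27.8) the level of the other cells. In these cells Ccl9 had no UMI, where 3 counts would be 24.5 CPM against 8.08 CPM in the other cells, and Mpo had 1 UMI, 0.107 of its level elsewhere. Ccl5, a chemokine of cytotoxic cells, was at 8307 CPM there. In the 9 WT cells Ccl3 was at 164 CPM from 5 UMIs in 1 cell and Ccl4 at 263 CPM from 8 UMIs in 2 cells. Mpo UMIs were in 4 of these 9 cells, at 0.775 of the level of other cells, so the WT gate did not hold T or NK RNA alone.

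Erythroid cells were another reference. In the 37 erythroid-gated WT cells, with a median of 5206 UMIs, Ccl9 was at 0.0481 of its level in other cells (0.00582 to 0.174), Mpo at 0.0429 (0.0275 to 0.0638) and Elane, another primary granule enzyme, at 0.0281. Ccl3 was at 0.130 (0.0477 to 0.283) and Ccl4 at 0.144 (0.0577 to 0.296). Unthinned, Ccl3 UMIs were in 16.2% of erythroid-gated cells against 32.4% of all WT cells. The levels of Ccl3, Ccl4 and Ccl9 in early lymphoid, stem and azurophil-gated WT cells lay above those of the erythroid gate with no overlap of intervals. Their levels in neutrophil granule-gated cells overlapped with it and could not be set apart from it at this depth. In 54 megakaryocyte-gated WT cells Ccl3 was at 35.4 CPM (17.0 to 65.1). In 11 B lineage-gated WT cells Ccl3 was at 148 CPM (67.7 to 281) and Ccl4 at 82.2 CPM (26.7 to 192). Both B lineage intervals held the azurophil levels. There, 1 cell held 8 of the 9 Ccl3 UMIs and 1 cell held 4 of the 5 Ccl4 UMIs. Without these cells the levels were 19.5 and 18.5 CPM. Cxcl2 and Ccrl2 were in the erythroid gate at 0.635 (0.0768 to 2.31) and 0.774 (0.0934 to 2.81) of their level elsewhere, from 2 UMIs each, so that their mean level in WT could not be set apart from that of the erythroid gate, although each of them differed between WT clusters beyond counting error, as given above.

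In cKO the erythroid-like cluster 9, led by Car1 and Mt2 and with the mast cell gene Fcer1a among its leading genes, held 238 cells with a median of 14676 UMIs. Ccl3 had 1 UMI there (0.284 CPM), Ccl9 had 2 (0.568 CPM) and Ccl4 had 3 (0.852 CPM). Cxcl2 was at 1.14 CPM, 0.169 (0.0459 to 0.435) of its level in other cKO cells, an interval below 1. Ccrl2 was at 7.38 CPM against 5.25 CPM in the other cells, a ratio of 1.41 (0.909 to 2.09), and 9.66% of these cells held a UMI. Ccrl2 differed between cKO clusters beyond counting error, with 1.99 CPM (1.34 to 2.84) in the histone gene-led cluster 3 and 6.54 CPM (5.31 to 7.96) in cluster 1, led by Ung and Fkbp11.

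**Figure D3:**
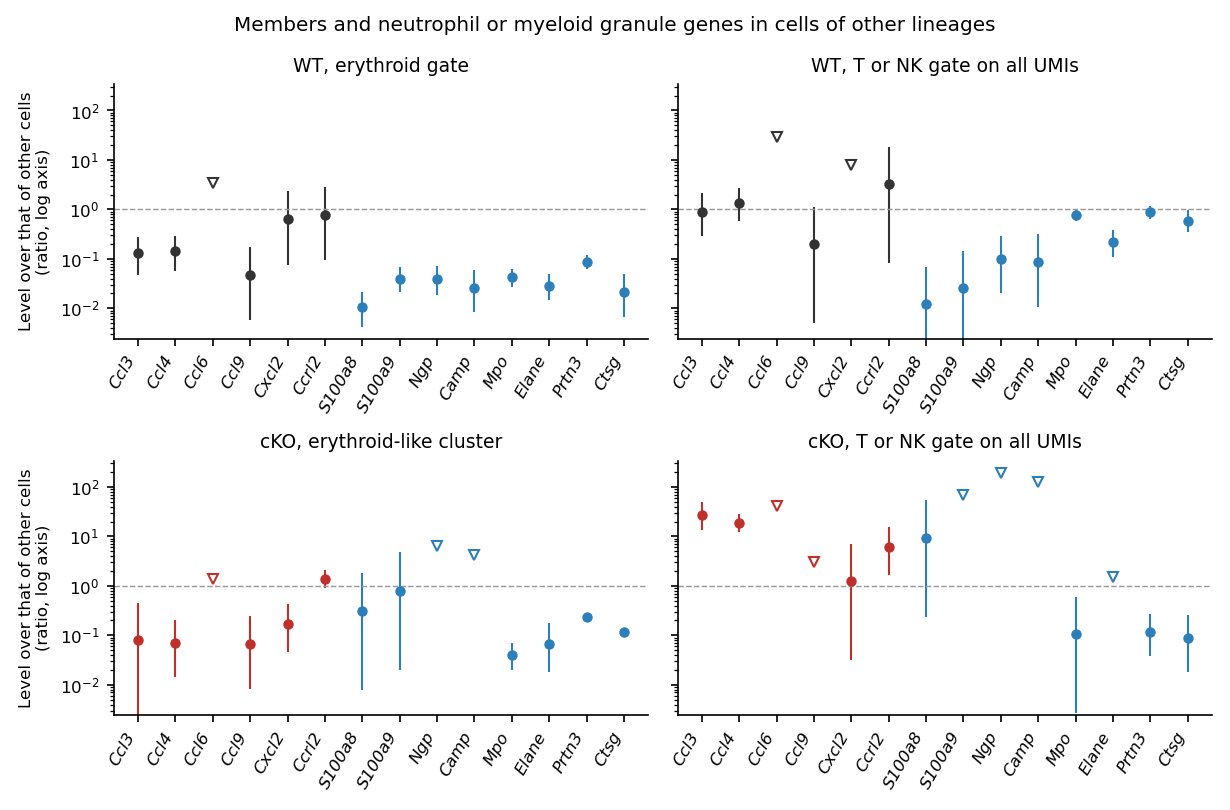
Level of the members and of 8 granule genes (blue) in cells of other lineages, as a ratio to the level in the other kept cells of the same library (log axis, dashed line at equal level). Points are ratios with 95% counting intervals, and open triangles mark no UMI, drawn at 3 counts. In WT erythroid-gated cells Ccl9 lies at 0.0481, among the granule genes, while in the 57 cKO T or NK-gated cells Ccl3 and Ccl4 lie at 27.6 and 18.9.

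The genes around the chemokine cluster on chromosome 11 were compared in the same way, a set chosen after the values were seen. Within 250 kb on either side there were 17 protein-coding genes with a row in the matrices, of which 10 were at 5 CPM or more in a library. Of these, 7 had a log2 ratio of -1 or lower and none was at 1 or higher, beside 5.26% and 2.92% of all genes, with Ccl3, Ccl4 and Ccl9 among the 7. Wfdc17, which encodes a small secreted protein and starts 39.3 kb beyond Ccl4, was at 229 CPM in WT against 4.49 CPM in cKO, with a log2 ratio of -5.67. Its neighbours Wfdc18 and Wfdc21 were at 12.2 and 78.5 CPM in WT and 0.454 and 0.102 CPM in cKO. Wfdc21 was among the leading genes of the neutrophil-like WT cluster 9 with S100a8, and Wfdc17 and Wfdc18 among those of the early lymphoid-like cluster 4, and the part of these cells in the values was not tested. On the other side, 1700020L24Rik, 132 kb beyond Ccl9 and overlapping Mmp28 on the opposite strand, was at 15.3 CPM in WT against 2.37 CPM in cKO. The other 3 of the 10 genes lay within the 2-fold limit. Ccl5, 42.4 kb beyond Ccl9, was at 26.3 CPM in WT against 16.7 CPM in cKO. Taf15 was at 33.4 and 33.9 CPM, and Heatr6 at 26.6 and 21.4 CPM.

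**Figure D4:**
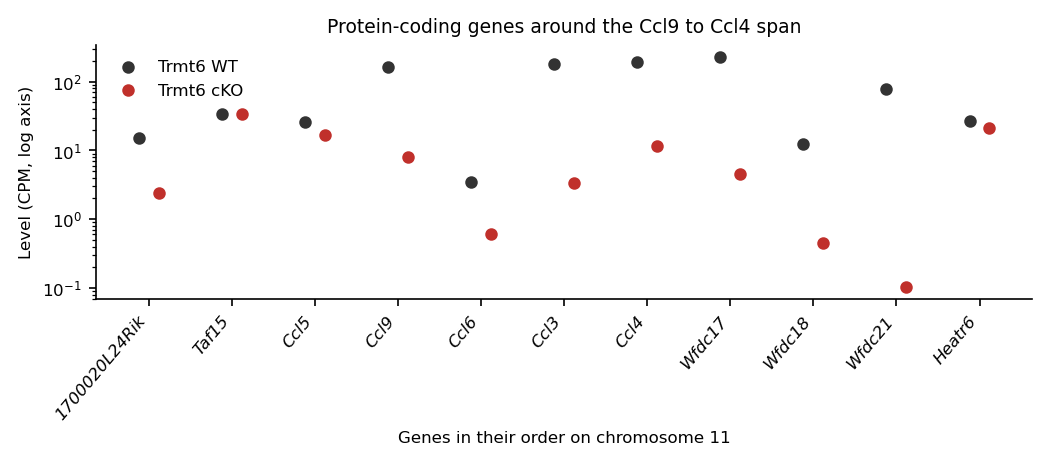
Level in CPM (log axis) of genes in their order on chromosome 11 around the Ccl9 to Ccl4 span, for Trmt6 WT (grey) and Trmt6 cKO (red), 1 library each. Shown are the 10 protein-coding genes within 250 kb that reached 5 CPM in a library, and Ccl6. The points of Ccl9, Ccl3, Ccl4, Wfdc17, Wfdc18 and Wfdc21 lie far apart, while those of Taf15 and Heatr6 lie close together.

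Likeness was measured over the 9 gates with at least 50 cells, 6 of WT and 3 of cKO, as Pearson's r of log2(CPM + 10) among 7086 genes. The points share their libraries, so r is a description that also holds the difference between the libraries. Closest to Ccl3 were Wfdc17 (r = 0.98), Ccl4 (0.97) and Rgs2 (0.95). Closest to Ccl4, after Ccl3, were Zfp414 and Tmem50a, both at 0.94. Closest to Ccl9 were Slc4a8 (0.97), Os9 (0.95) and Mpo (0.94), and closest to Cxcl2 were S100a8 and S100a9 (both 0.94) and Arrb2 (0.93). Cxcl2 was highest in the neutrophil granule gate, where 3 cells held all its UMIs. For Ccl6 they were Rogdi (0.97), Arpc3 (0.95) and AI839979 (0.94), and for Ccrl2 Scrn2 (0.99), Wdr60 (0.98) and Nipbl (0.97). Ccl6 and Ccrl2 stood at most at 19.5 and 16.5 CPM in these gates, beside the 10 CPM added. Between members, r was 0.97 for Ccl3 with Ccl4 and 0.65 for Ccl3 with Ccl9.

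Early-response genes, among them AP-1 and NF-kB factors that are known to drive chemokine genes, were listed to stand beside the members. Of 26 listed genes, 24 were at 5 CPM or more, with a median log2 ratio of -1.70 beside -0.06 over all genes. At -1 or lower were 18 of them and none was at 1 or higher, beside 5.26% and 2.92% of all genes. Jun was at 1501 CPM in WT against 147 CPM in cKO, and Fos at 483 and 77.8 CPM. Jund was at 1318 and 280.3 CPM, Junb at 725 and 244 CPM and Ier2 at 675 and 289 CPM. Of the 5 genes of NF-kB subunits on the list, 4 were not lower, as was noted after the values were seen. Rela was at 26.1 and 30.1 CPM, Nfkb1 at 70.3 and 77.0 CPM, Relb at 5.12 and 7.69 CPM and Nfkb2 at 3.58 and 5.75 CPM. Rel, the other subunit gene, was at 24.1 and 11.3 CPM and so among the 18. The list was drawn up with earlier results of these data known. These genes also respond to the handling of cells, and their part in the chemokine differences was not tested.

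In WT the shares of cells with Ccl3 and Ccl4 were higher where early-response UMIs were more, up to 39 of them, and that of Ccl9 was not. For this, cells were placed by their summed UMIs of the 26 genes in 2000 UMIs, a range chosen after seeing the data, whose median was 12 in WT and 3 in cKO. In WT, Ccl3 UMIs were in 8.53% of 1536 cells with 0 to 4 early-response UMIs, in 14.8% of 1713 cells with 5 to 9, in 23.5% of 2434 cells with 10 to 19 and in 31.8% (29.7 to 33.9) of 1934 cells with 20 to 39. In the 339 cells with 40 or more the Ccl3 share was 28.0% (23.3 to 33.1), which overlapped with the range before it. Ccl4 UMIs were in 10.2% of the WT cells in the lowest range, 32.2% of those with 20 to 39 and 32.4% of those with 40 or more. The Ccl9 shares of the same ranges were 22.6%, 19.6% and 15.6%. Ccrl2 was in 1.11% of the WT cells in the lowest range and 4.03% of those with 20 to 39, and Cxcl2 in 0.456% and 3.26%. Early-response levels in WT also differed with lineage. Jun was at 2605 CPM in the stem gate, 1471 CPM in the early lymphoid gate and 874 CPM in the azurophil gate, and Fos at 614, 725 and 247 CPM. The part of the lineage mix in these shares was not tested.

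The libraries were also set side by side within the ranges. In cells with 5 to 9 early-response UMIs, Ccl3 was in 14.8% (13.1 to 16.5) of 1713 in WT against 0.791% (0.443 to 1.30) of 1896 in cKO, and Ccl9 in 22.9% and 1.11%. Ccl4 was in 18.2% of WT and 3.32% of cKO cells there. Cxcl2 was in 0.992% (0.579 to 1.58) of WT and 2.004% (1.42 to 2.74) of cKO cells in the same range, and Ccrl2 in 1.81% (1.23 to 2.56) and 1.53% (1.03 to 2.19). For these 2 members the intervals of the libraries overlapped in this range. Among the 27 cKO cells with 20 to 39 early-response UMIs, Ccl3 and Ccl4 were each in 18.5% (6.30 to 38.1), and these intervals held the WT shares of that range. Ccrl2 was also in 18.5% of these 27 cKO cells, above the 4.03% (3.201 to 5.01) of WT. Each of these cKO shares rested on 5 cells, whose lineage was not examined.

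**Figure D5:**
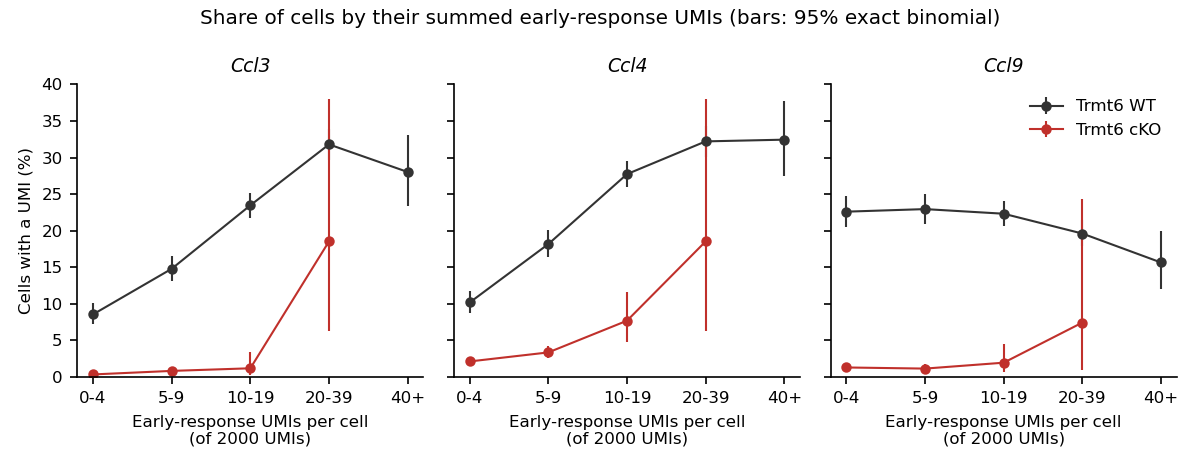
Percent of cells with a UMI of Ccl3, Ccl4 or Ccl9 (after thinning to 2000 UMIs) by the summed early-response UMIs of the cell, for Trmt6 WT (grey) and Trmt6 cKO (red), 1 library each. Bars are 95% exact binomial intervals, and ranges with fewer than 20 cells are not drawn. Ccl3 in WT goes from 8.53% to 31.8% between the lowest range and 20 to 39 UMIs and is 28.0% at 40 or more. Ccl9 in WT stays between 15.6% and 22.9%. All drawn cKO points lie below the WT points of the same range, and at 20 to 39 UMIs the intervals overlap.

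Of 31 other chemokines, 3 reached 5 CPM in a library, with a median log2 ratio of -0.65. Pf4, a platelet chemokine, was at 127 CPM in WT against 32.6 CPM in cKO. Ccl25, a thymus and gut chemokine, was at 6.61 and 7.69 CPM, and Ccl5 is given above. Of 24 receptors, 4 reached that level and 3 had a log2 ratio of -1 or lower, beside 5.26% of all genes, with a median of -2.61. Cx3cr1 was at 9.47 CPM in WT against 0.340 CPM in cKO, Ccr2 at 11.9 and 1.43 CPM and Cxcr2, the receptor of Cxcl2, at 20.1 and 4.48 CPM. Cxcr4, the receptor that keeps HSPCs in the marrow, was at 15.1 and 11.7 CPM. Ccr1, a receptor of Ccl3, Ccl6 and Ccl9, was below 5 CPM in both libraries.

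Transcription factors of the myeloid lineage differed in both directions. Of 10 listed, 9 were at 5 CPM or more, with a median log2 ratio of -1.49, 5 at -1 or lower and 1, Gfi1 (16.3 and 39.5 CPM, named after its value was seen), at 1 or higher, beside 5.26% and 2.92% of all genes. The lowest log2 ratio, -6.09, was that of Cebpe, a factor of late granulocyte maturation, at 32.8 CPM in WT against 0.476 CPM in cKO. Irf8, which directs monocyte and dendritic fates, was at 191 CPM in WT against 12.5 CPM in cKO. Spi1, which encodes PU.1, was at 202 and 120.0 CPM, Myb at 166 and 83.2 CPM and Runx1 at 61.8 and 22.0 CPM. Cebpb was higher in cKO, at 132 CPM in WT against 247 CPM in cKO. Cells with myeloid genes were fewer in cKO, with 1165 WT against 78 cKO azurophil-gated cells, 129 against 8 monocyte or dendritic-gated cells and 58 against none in the neutrophil granule gate. Their part in the differences of these factors and of the receptors was not tested.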

How the data were processed

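The 2 single-cell libraries came from sorted LSK cells. UMI counts were used as deposited, from Cell Ranger 6.0.0 run by the authors on mm10 (submitters' processing notes). The labels name version 2 of the 3′ kit and the study's methods another version. Barcodes with more than 200 genes, fewer than 4000 (WT) or 4500 (cKO) genes, under 10% (WT) or 5% (cKO) mitochondrial and under 5% hemoglobin UMIs were taken. Doublets were scored against simulated doublets and removed at 0.8% per 1000 barcodes (7.09% of WT and 7.41% of cKO barcodes).

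Levels are CPM of summed UMIs, and log2 ratios carry 0.5 prior counts. Intervals (scipy 1.17.1) are Poisson, conditional binomial or Clopper-Pearson. Limits use 3 counts. The code was tested on simulated data. A gate asks for 3 of its markers (4 for monocyte or dendritic) at 1 UMI each, or 2 for the azurophil and neutrophil granule gates, and cells of more than 1 gate were set aside. Clusters (leidenalg 0.10.2, resolution 1, 20 neighbours) were called like a gate where its markers were the most frequent among the 10 leading genes and at least 3 passed a log2 fold of 1. Named genes were the members, other chemokines and receptors at 5 CPM or more, the 5 highest of 2 lists, and the 3 genes most like each member. Genes of the chromosome 11 stretch, gates on all UMIs, clusters and early-response ranges were chosen after the values were seen. The members and lists were chosen with earlier results of these data known. Cxcl11 and Trbc1 had no row in the matrices, and Ccl19, Ccl27a and Itgam named more than 1 row and were left out. Alternatives were other scalings (edgeR 4.0.16 TMM, median of ratios), cell filters, gates and thinning depths. No reads were analysed here.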

Additional observations from a re-analysis of the deposited data

Results flagged for a closer look

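In basophil or mast-gated cells Ccl3, Ccl4 and Ccl9 were higher in cKO than in WT (log2 ratios of 3.51, 1.98 and 1.30), while in stem, early lymphoid and azurophil-gated cells they were lower. The opposite directions rest on 12 WT and 20 cKO cells of 1 library each, which also differed in Mpo (1883 and 178 CPM), and the difference was not tested.

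Cells below 2000 UMIs were left out of the gates. Among them Ccl6 was at 39.96 CPM in cKO (14.7 to 87.0, from 6 UMIs in 99 cells, all 6 in 1 cell) and at 3.29 CPM in WT (0.0832 to 18.3, from 1 UMI in 189 cells), beside 0.601 CPM over all cKO cells. Without that cell there was no Ccl6 UMI among them. Ccl5 was at 5468 CPM in the same cKO cells.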

How the results depend on the processing

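No paired analysis was possible because each genotype has 1 library. All alternatives kept the 6 library ratios below 0. TMM, median-of-ratios and a total that leaves out mitochondrial and ribosomal protein genes moved all log2 ratios by 0.09, 0.10 and 0.10, which took Ccl4 to -3.97, -3.96 and -3.96. With each cell scaled before the mean, the log2 ratios were -5.02 (Ccl3), -3.63 (Ccl4), -1.21 (Ccl6), -4.16 (Ccl9) and -1.12 (Cxcl2). With the same mix of gates and no neutrophil granule gate, the log2 ratios were -5.14 (Ccl3), -3.55 (Ccl4), -0.13 (Ccl6, leaning on single cells) and -2.28 (Ccl9). Without cells of 5 other-lineage gates they were -6.47 (Ccl3) and -4.25 (Ccl4). Without basophil or mast-gated cells and cells below 2000 UMIs (added after seeing the data) they were -6.48 (Ccl3), -4.23 (Ccl4) and -3.00 (Ccl6). Without the highest 1% of cells they were -7.65 (Ccl3), -4.29 (Ccl4), -5.09 (Ccl9) and -0.59 (Cxcl2), and Ccl6 had no cKO UMI left. For Ccl3, Ccl6 and Ccl9 these shifts exceed 1.5 times. The cause was not tested.

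Over the stem, early lymphoid and azurophil gates, 10 of 18 member ratios had an interval below 0, beside 11.3% of the ratios of all genes at 5 CPM or more. With 1 marker more per gate there were 6 of 12, since the early lymphoid gate was then not compared, beside 5.79% of all genes, and with gates on all UMIs 16 of 18, beside 26.3%. Over the alternatives for gates, clusters and doublets, the log2 ratio of Ccl9 in the azurophil gate lay between -2.19 and -0.75, that of Ccl3 in the stem gate between -7.52 and -3.70 and that of Cxcl2 in the azurophil gate between -0.16 and 0.94. All 6 members had a lower share in cKO, apart in their intervals, with thinning to 3000 UMIs or doublets kept, against 5 at 2000 and 1000 UMIs. At a minimum of 1 CPM, 876 of 11641 genes had a log2 ratio of -1 or lower and 528 of 1 or higher, against 481 and 267 of 9141 at 5 CPM. In cKO T or NK-gated cells the Ccl3 ratio was between 20.5 and 34.0 and that of Ccl4 between 7.14 and 19.8 over the alternatives.

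Depth limits Ccl6, Cxcl2 and Ccrl2 within gates, and the gates of cKO hold few cells. Intervals cover counting error only, and the spread between mice is not known.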
